A study of Mus musculus with 4 samples.

Results

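The genes described here serve protein folding and export in the endoplasmic reticulum (ER): the ER chaperones and folding enzymes, the sensors of the unfolded protein response, the machinery of ER-associated degradation, the translocon and the COPII coat. They are 44 named genes, and all 44 were found by gene symbol among the 25239 rows of the count table. By role, 19 are chaperones and folding enzymes, 6 are sensors or transcription factors, 8 act in ER-associated degradation, 4 belong to the translocon and 7 to COPII transport. All 44 passed the filter on low counts, Derl3 with only 25 to 61 counts per library.

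Secreted and membrane proteins enter the ER through the translocon and fold there with the help of chaperones such as BiP. Proteins that stay unfolded draw BiP away from the sensors IRE1, ATF6 and PERK, which then raise the transcription of chaperone and degradation genes. Correctly folded cargo leaves in vesicles coated by COPII, and misfolded cargo is drawn back into the cytosol and destroyed by the proteasome. Chondrocytes depend on these steps because they secrete large amounts of procollagen and aggrecan, and loss of several COPII genes disturbs cartilage in mice and fish.

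RNA-seq of poly(A) RNA was made from primary mouse chondrocytes in 2 groups of 2 libraries each. The conditional knockout (cKO) libraries came from Tiki2 fl/fl mice that also carried Col2a1-Cre/ERT, a tamoxifen-inducible Cre recombinase under Col2a1 control, and the control libraries from Tiki2 fl/fl mice without the Cre. Every culture, the controls included, received 4-hydroxytamoxifen, which activates this Cre. Tiki2 (gene symbol Trabd2b) is a membrane protease that inactivates Wnt proteins, and the question is how its loss alters these cells. The Cre acts only in cells that use the Col2a1 promoter, and only the cKO cultures carry it, so loss of Tiki2 and the presence of an active Cre cannot be told apart. The labels give no strain or age and do not state that replicates are different mice or separate cultures. The p-values therefore reflect the spread among these 4 libraries alone, which may be technical.

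Libraries held 66750140 to 78873054 counts. Trabd2b had 22643 and 29473 counts in the cKO libraries, against 28513 and 31314 in the control libraries (log2 fold change -0.38 ± 0.11; edgeR adjusted p = 0.148). The fold change of Trabd2b was -0.54 without cKO replicate 2 (edgeR adjusted p = 0.027) and -0.23 without cKO replicate 1 (0.13), and with DESeq2 it passed (adjusted p = 0.00713). A fit with 1 library in a group takes its spread from the other group alone. Passing such a fit, here or below, is therefore weak evidence of a difference. Counts per gene do not show the floxed part alone. Control replicate 1 had 112185 counts of Xist and 0 of the Y-linked gene Ddx3y, and the other 3 libraries had 36 to 171 and 11073 to 12085, so that library alone carries the pattern of female cells. The 8 chondrocyte markers were all present but summed to 8208 to 11377 CPM by library size (counts scaled to a fixed total per library) in cKO, against 20314.5 to 24114 CPM in controls, and 7 of the 8 fell, but only 1 did when either control library was left out. Col2a1 alone made up most of the chondrocyte sums, at 7907 and 5545 CPM by library size in cKO, against 14062 and 17327 CPM in controls. The 8 adipocyte markers summed to 325 to 525 CPM in cKO and 215 to 218 CPM in controls. Sums in cKO and controls were 21.2 to 22.4 and 17.96 to 25.0 CPM for macrophage markers, 62.2 to 79.1 and 58.5 to 65.1 CPM for endothelial markers, 12.8 to 59.6 and 4.48 to 28.7 CPM for muscle markers, and 183 to 192 and 202 to 220 CPM for markers of ER-rich plasma cells. Adgre1, C1qb, Pecam1, Cdh5, Emcn, Cldn5, Mzb1, Cd79b and Prdm1 stayed under 10 counts in every library. The part of these differences in the results below was not tested, and in bulk RNA fewer cells of a type and less RNA per cell cannot be told apart.

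The ER genes as a group stood slightly lower in the cKO cultures, and 2 of the 44, the chaperone genes Hspa5 and Dnajb9, passed the test as lower (quasi-likelihood test of edgeR, with p-values adjusted by Benjamini-Hochberg over all 15522 genes tested and a threshold of 0.05). None passed as higher. Over all genes, 1.30% were called, 0.908% lower and 0.393% higher. At an unadjusted edgeR p under 0.05, 23 of the 44 were lower and none higher, where 8.88% of all genes were lower and 8.36% higher. The median log2 fold change of the 44 was -0.17, against 0.00 over all genes tested, and 40 of the 44 were below 0, against 49.6% of all genes. Both cKO libraries lay below both control libraries for 34 of the 44 genes and above them for none, where 24.9% of all genes lay below and 24.9% above, on TMM-scaled CPM. TMM scaling corrects library size for composition, and with library size alone the counts were 28 below and 3 above (background 16.7% and 35.0%), with 12 genes lower at an unadjusted edgeR p under 0.05. The 44 genes together took 1.195% and 1.189% of all counts in the cKO libraries, against 1.281% and 1.296% in the control libraries; the 95% Wilson intervals span 1.187% to 1.197% in cKO and 1.278% to 1.299% in controls and cover counting error only.

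**Figure D1:**
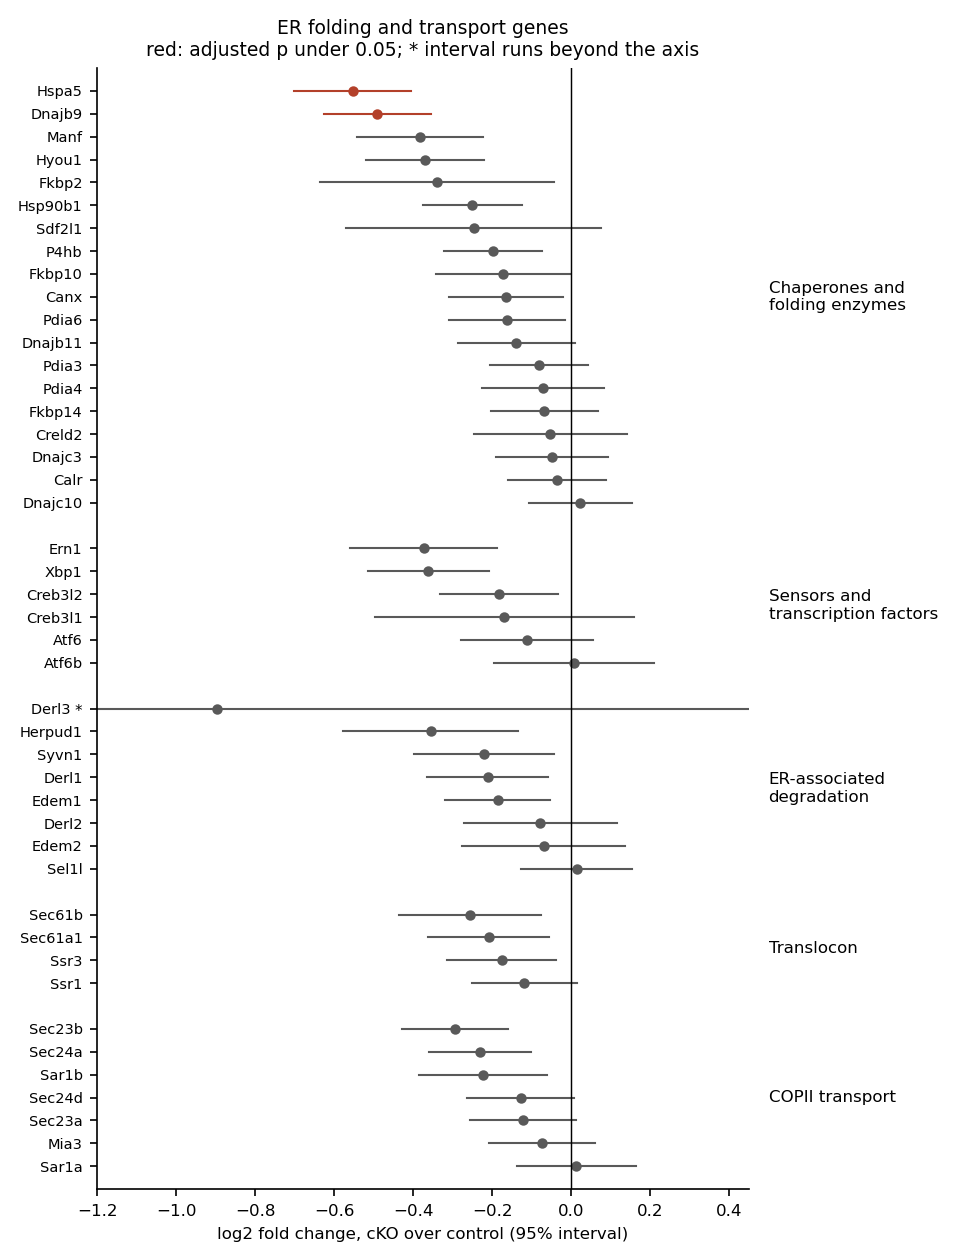
Log2 fold change of cKO over control for each of the 44 genes, grouped by function, with 95% intervals from the edgeR fit (2 libraries a group). Hspa5 at -0.55 and Dnajb9 at -0.49, in red, are the 2 genes with an adjusted p under 0.05, while the interval of Derl3, the gene with the lowest counts, runs beyond the axis.

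Hspa5 encodes BiP, the ER member of the Hsp70 family, which binds nascent and unfolded chains and holds the stress sensors inactive. It had 649.6 and 603 CPM in the cKO libraries, against 909.9 and 928 CPM in the control libraries. The lower control library lay well above the higher cKO library. Hspa5 (mm10 chromosome 2, 34771970 to 34777547) fell by 0.55 ± 0.06 in log2 units (± SE; 95% interval -0.70 to -0.41; edgeR adjusted p = 0.0289), or 31.9% lower. Dnajb9 encodes ERdj4, an ER co-chaperone of BiP that also holds IRE1 in its resting state. It had 67.6 and 65.9 CPM in the cKO libraries, against 93.4 and 94.2 CPM in the control libraries, and replicates within each group differed by far less than the groups. Dnajb9 (chromosome 12, 44205559 to 44210326) fell by 0.49 ± 0.06 (edgeR adjusted p = 0.0289), or 28.9% lower. Without control replicate 1, the library with the female pattern, the log2 fold changes were -0.57 and -0.50, and the edgeR adjusted p-values were 0.123 for Hspa5 and 0.131 for Dnajb9. Without control replicate 2 these were 0.163 and 0.168.

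The next genes in size among the chaperones did not pass the test. Manf encodes a small secreted ER protein that binds BiP. Manf had 82.3 and 77.0 CPM in cKO, against 101 and 107 CPM in controls (log2 fold change -0.38 ± 0.07, edgeR adjusted p = 0.0576). Hyou1 encodes the large Hsp70-like protein Grp170, which exchanges nucleotide on BiP. Hyou1 had 217 and 202 CPM in cKO, against 268 and 273 CPM in controls (log2 fold change -0.37 ± 0.06, edgeR adjusted p = 0.0554). The groups did not overlap for either gene. When 1 library was left out, the log2 fold changes ran from -0.43 to -0.33 for Manf and -0.42 to -0.32 for Hyou1.

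Hsp90b1, which encodes the ER member of the Hsp90 family, Grp94, had 796 and 798 CPM in cKO, against 942 and 953 CPM in controls. The groups did not overlap (log2 fold change -0.25 ± 0.05, edgeR adjusted p = 0.0844). The lectin chaperones calreticulin and calnexin, which hold glycoproteins while they fold, were closer to the controls. Calr had 999 and 1005 CPM in cKO, against 1020 and 1036 CPM in controls. Its log2 fold change was -0.04, with a 95% interval from -0.16 to 0.09 that does not reach the interval of Hspa5, and with library size alone it turned to 0.03. Canx was at -0.17 ± 0.06 (edgeR adjusted p = 0.234).

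Ratios between genes within a library do not depend on how libraries are scaled. There were 0.650 and 0.5997 Hspa5 counts per Calr count in the cKO libraries, against 0.892 and 0.896 in the control libraries. Hspa5 counts per Pdia3 count were 0.721 and 0.673 in cKO and 0.960 and 0.975 in controls, and per Hsp90b1 count 0.816 and 0.756 in cKO and 0.966 and 0.974 in controls. The groups did not overlap in any of these ratios. BiP transcripts were thus lower relative to Calr, Pdia3 and Hsp90b1 transcripts, not only relative to the whole library. The pairs were chosen with the fold changes known, so the ratios restate those fold changes and are no further evidence. The share of all gene pairs without overlap was not worked out. With 2 against 2 libraries an exact permutation test cannot go below p = 0.333 (two-sided).

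The protein disulfide isomerases form and rearrange disulfide bonds in the ER. Of these, P4hb, which is also the shared subunit of collagen prolyl 4-hydroxylase, had 1686 and 1658 CPM in cKO, against 1884 and 1952 CPM in controls. Its log2 fold change was -0.20 ± 0.05 (edgeR adjusted p = 0.125). Pdia6 was at -0.16, Pdia3, which works with calreticulin and calnexin, at -0.08, and Pdia4 at -0.07, with edgeR adjusted p-values from 0.246 for Pdia6 to 0.635 for Pdia4. The Pdia4 groups overlapped. Among the peptidyl-prolyl isomerases, Fkbp10, which acts on procollagen and with a collagen-modifying complex, was at -0.17 ± 0.07, Fkbp14 at -0.07 ± 0.06 and the low-level Fkbp2 at -0.34 ± 0.12 (edgeR adjusted p from 0.231 for Fkbp2 to 0.606 for Fkbp14).

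The remaining J-domain co-chaperones, which hand substrates to BiP, stayed closer to the controls than Dnajb9. Dnajc10, a disulfide reductase with a J domain, had 190.1 and 194 CPM in cKO, against 191 and 187 CPM in controls, and the groups overlapped. Dnajc3 was at -0.05 and Dnajb11 at -0.14 on the log2 scale. There were 0.356 and 0.339 Dnajb9 counts per Dnajc10 count in cKO, against 0.490 and 0.502 in controls. This pair, too, was chosen with the fold changes known. Sdf2l1, a partner of Dnajb11, was at -0.25 ± 0.13 (-0.38 to -0.098 with 1 library left out), and Creld2, a stress-induced ER protein of cartilage, at -0.05 ± 0.08. Over the 19 chaperones and folding enzymes, 18 fold changes were below 0 (15 with library size alone), and the median log2 fold change was -0.17. Of the 19, 2 passed, and 10 were lower at an unadjusted edgeR p under 0.05, against 8.88% of all genes. The 2 calls did not hold when either control library was left out, as given above. Leaving out 1 library at a time moved the median between -0.21 and -0.13.

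**Figure D2:**
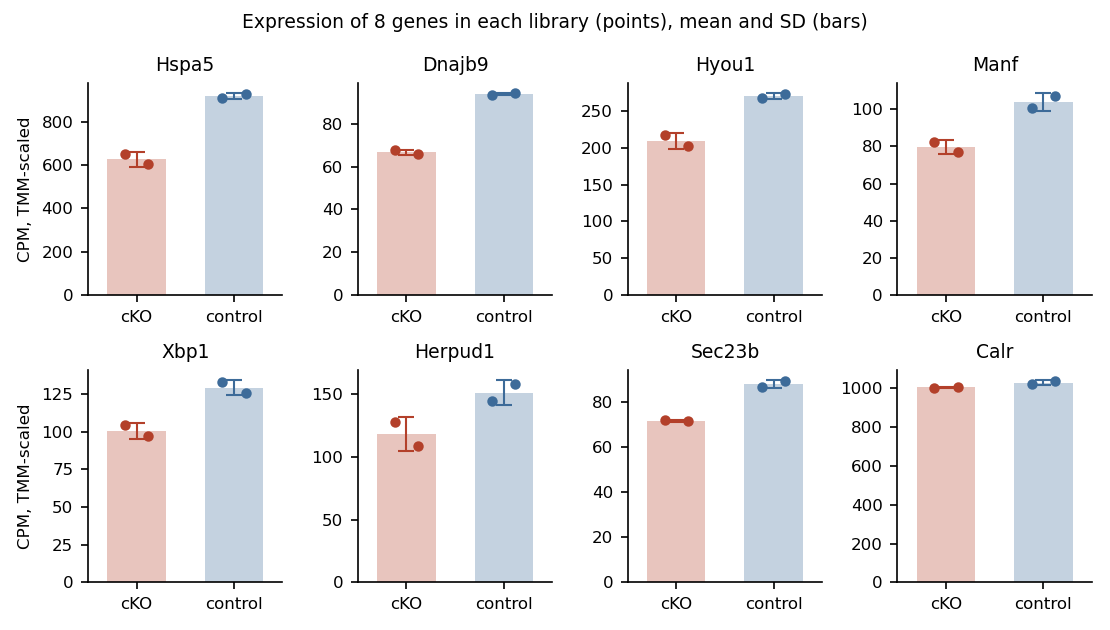
TMM-scaled CPM of 8 genes in each of the 2 cKO and 2 control libraries (points), with the mean (bars, from 0) and SD (error bars). Hspa5, Dnajb9, Hyou1, Manf, Xbp1, Herpud1 and Sec23b have both cKO points below both control points by a visible margin, whereas Calr, at 999 and 1005 CPM in cKO and 1020 and 1036 CPM in controls, is nearly level.

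On a scale per kilobase of exon, which allows levels of different genes to be compared, the control order was P4hb, Calr, Pdia3, Hsp90b1 and Hspa5, at means of 670.5, 471, 343, 335 and 245 CPM per kb. Fkbp10 followed at 195 CPM per kb. In each cKO library Hspa5 stood below Fkbp10, at 173 and 161 CPM per kb against 178 and 168 CPM per kb for Fkbp10. The ranges of the 2 genes overlapped there, whereas in controls Hspa5 was at 242 and 247 CPM per kb and Fkbp10 at 186 and 204 CPM per kb. Pdia6, at 180 and 169 CPM per kb, and Canx, at 172 and 171 CPM per kb, did not differ in controls beyond their spread. The sensors lay below these genes, in controls from 54.1 CPM per kb for Xbp1 to 8.57 CPM per kb for Ern1. Ern1 had 6.62 CPM per kb in cKO. Other chaperones lay as low as 10.1 CPM per kb (Fkbp2 in controls), so the 2 roles overlapped in level. Derl3 was the lowest of all, at 0.248 CPM per kb in cKO and 0.462 CPM per kb in controls.

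**Figure D3:**
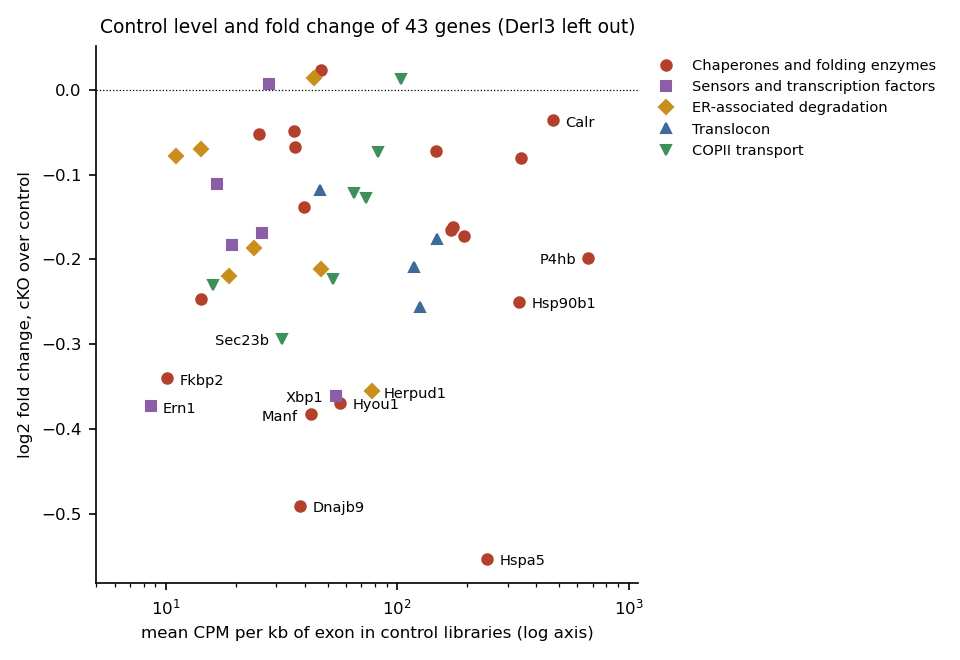
Log2 fold change of cKO over control against the mean control level in CPM per kb of exon (log axis) for 43 genes, with symbols by function; Derl3 is left out. Genes at similar levels differ in fold change, as Hspa5 (245 CPM per kb, -0.55) and Pdia3 (343 CPM per kb, -0.08) do.

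ER stress acts on many of these genes through the ER stress response element (ERSE), the letters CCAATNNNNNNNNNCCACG, which NF-Y and ATF6 bind together. The RefSeq promoter windows (GRCm38.p6, 250 bases before to 50 after each start site) were searched for it on both strands, and 37 of the 44 genes had a window. ERSE was present in 9 of these 37 genes, or 24.3%, against 37 of all 27025 genes with a window, or 0.137%. Of the 9, 7 are chaperones or folding enzymes (of 16 with a window) and 2 act in ER-associated degradation (of 7), while the 4 sensors, 3 translocon and 7 COPII genes with a window had none. The matches are shown with 10 bases on either side, on the strand that reads CCAAT first and with the fixed letters in capitals, so that the element can be compared between Hspa5, which fell, and genes that did not pass.
Hspa5 (chr2:34772015-34772053, plus strand): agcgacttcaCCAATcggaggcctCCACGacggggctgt
Hsp90b1, distal (chr10:86705628-86705666, minus strand): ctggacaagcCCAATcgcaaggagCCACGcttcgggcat
Hsp90b1, proximal (chr10:86705523-86705561, plus strand): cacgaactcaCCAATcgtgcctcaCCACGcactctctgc
Calr (chr8:84847065-84847103, plus strand): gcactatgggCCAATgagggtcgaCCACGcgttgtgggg
Canx (chr11:50325790-50325828, minus strand): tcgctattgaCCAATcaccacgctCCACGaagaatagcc
Pdia6 (chr12:17266481-17266519, plus strand): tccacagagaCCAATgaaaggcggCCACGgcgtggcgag
Dnajc3 (chr14:118937817-118937855, plus strand): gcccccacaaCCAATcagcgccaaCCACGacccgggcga
Creld2 (chr15:88819510-88819548, minus strand): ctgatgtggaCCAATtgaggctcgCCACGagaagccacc
Syvn1 (chr19:6046522-6046560, plus strand): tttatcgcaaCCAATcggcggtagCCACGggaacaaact
Derl3 (chr10:75893232-75893270, minus strand): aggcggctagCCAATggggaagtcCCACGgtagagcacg

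Genes that share the element spanned nearly the whole range of fold changes among the 44. The 9 genes with ERSE had log2 fold changes from -0.90 for Derl3, and -0.55 for Hspa5, to -0.04 for Calr, with a median of -0.17. The 28 genes whose window held no ERSE had a median of -0.16 and ran from -0.49 for Dnajb9 to 0.02 for Dnajc10. ERSE-II, the letters ATTGG and CCACG with a single base between them, was found in Herpud1 and Dnajb11 and in 0.0444% of all genes with a window, and the unfolded protein response element TGACGTGG in Sec23a and Sec24d and in 0.714% of them. None of these 4 genes also held ERSE. In the Herpud1 promoter the element reads as follows.
Herpud1, ERSE-II (chr8:94386367-94386397, plus strand): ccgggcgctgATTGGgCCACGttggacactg

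The 150 bases before the RefSeq start site are given for the 2 genes that fell, because only Hspa5 of the pair holds one of the 3 elements there; the ERSE letters are in capitals. The mm10 gene record for Hspa5 given above begins inside the Hspa5 stretch. The Dnajb9 stretch, and its whole window, lie inside the mm10 gene record for Dnajb9, which begins at 44210326 on the minus strand. Bases before that start were not searched, so the 2 stretches do not compare like with like.
Hspa5 (chr2:34771940-34772089, plus strand): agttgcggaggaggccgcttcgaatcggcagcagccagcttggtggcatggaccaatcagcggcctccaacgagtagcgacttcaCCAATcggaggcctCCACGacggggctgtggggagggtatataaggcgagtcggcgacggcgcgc
Dnajb9 (chr12:44210069-44210218, minus strand): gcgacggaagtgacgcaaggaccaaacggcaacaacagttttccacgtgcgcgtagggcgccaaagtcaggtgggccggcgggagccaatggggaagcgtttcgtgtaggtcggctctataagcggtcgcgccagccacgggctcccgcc
A match is a description of these letters, and its absence says only that they are not in this window. Hyou1, Manf, Atf6, Creb3l1, Derl1, Fkbp10 and Sec61a1 had no window.

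Of the 6 sensors and transcription factors, none passed the test. For 4 of them, Ern1, Xbp1, Atf6 and Creb3l2, both cKO libraries lay below both controls on TMM-scaled CPM, against 24.9% of all genes. With library size alone Atf6 overlapped. Ern1 encodes IRE1, the ER kinase and nuclease that splices the Xbp1 transcript. Ern1 had 57.3 and 50.6 CPM in cKO, against 68.9 and 70.9 CPM in controls (log2 fold change -0.37 ± 0.08, edgeR adjusted p = 0.083). Xbp1, whose spliced transcript encodes an activator of chaperone and degradation genes, had 104 and 97.0 CPM in cKO, against 133 and 126 CPM in controls. Its log2 fold change was -0.36 ± 0.06 (edgeR adjusted p = 0.0598), and the groups overlapped in neither gene. Counts per gene do not separate spliced from unspliced Xbp1. When 1 library was left out, the log2 fold changes ran from -0.47 to -0.29 for Ern1 and -0.42 to -0.31 for Xbp1.

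The ATF6-type factors are cut in the Golgi and then enter the nucleus. Atf6 was at -0.11 ± 0.07 and Atf6b, its relative, at 0.01 ± 0.08 (log2 fold change ± SE). Creb3l2, which in mouse chondrocytes activates Sec23a and is needed for cartilage matrix secretion, had 125 and 116 CPM in cKO, against 133 and 140.4 CPM in controls, without overlap (-0.18 ± 0.06; edgeR adjusted p = 0.207). Creb3l1, the related factor of bone-forming cells, had 68.9 and 51.1 CPM in cKO, against 65.9 and 68.8 CPM in controls. Only cKO replicate 2 stood apart there, and without it the log2 fold change was 0.03, against -0.17 with all libraries and -0.40 without cKO replicate 1. The median of the 6 was -0.18, and -0.32 without cKO replicate 1.

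ER-associated degradation gave no call among 8 genes, with 4 lower at an unadjusted edgeR p under 0.05, against 8.88% of all genes. Herpud1, a stress-induced membrane protein of the degradation complex, had 128 and 108 CPM in cKO, against 144 and 158 CPM in controls. The groups did not overlap (log2 fold change -0.36 ± 0.09, edgeR adjusted p = 0.125). Leaving out 1 library gave log2 fold changes from -0.48 to -0.24 for Herpud1. Syvn1, the ubiquitin ligase Hrd1, had 59.6 and 57.9 CPM in cKO, against 64.6 and 72.2 CPM in controls, a log2 fold change of -0.22. Its partner Sel1l had 272 and 285 CPM in cKO, against 274 and 277 CPM in controls, with overlap and a log2 fold change of 0.01. Both are subunits of the same ligase complex, and neither passed.

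Derl1 and Derl2 encode membrane channels for the exit of degradation substrates, and Edem1 and Edem2 trim the sugars that mark them. Derl1 was at -0.21 and Edem1 at -0.19, each with both cKO libraries below both controls, whereas Derl2 at -0.08 and Edem2 at -0.07 overlapped. Derl3 had 27 and 25 counts in the cKO libraries, against 27 and 61 in the control libraries, too few to read a difference (log2 fold change -0.90, 95% interval -2.54 to 0.75). The median of the 8 was -0.20.

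The 4 translocon genes all had both cKO libraries below both control libraries, where 24.9% of all genes did on TMM-scaled CPM, and none passed. Sec61a1 encodes the channel subunit and Sec61b a small subunit beside it. Sec61a1 had 337 and 313 CPM in cKO, against 373 and 379 CPM in controls, and Sec61b had 57.4 and 61.4 CPM in cKO, against 74.5 and 67.5 CPM in controls. Their log2 fold changes were -0.21 and -0.26 (edgeR adjusted p = 0.169 and 0.156). Ssr1 and Ssr3, subunits of the translocon-associated TRAP complex, were at -0.12 and -0.18. The median of the 4 was -0.19.

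COPII transport gave no call among 7 genes, with 3 lower at an unadjusted edgeR p under 0.05, against 8.88% of all genes. The median log2 fold change was -0.13. The inner coat is built from Sec23 and Sec24 subunits on the GTPase Sar1, and 3 pairs of paralogs are among the 7 genes. In each pair the paralog with the lower control level per kb of exon had the lower log2 fold change, a difference that was not tested. It covers these pairs only. The other Sec24 paralogs, Sec24b and Sec24c, are outside the list and had log2 fold changes of 0.01 and 0.06. Sec23b had 72.0 and 71.4 CPM in cKO, against 86.7 and 89.0 CPM in controls (log2 fold change -0.29 ± 0.06; edgeR adjusted p = 0.0704). Sec23a, the paralog whose loss disturbs the skeleton in fish and people, had 244 and 249 CPM in cKO, against 266 and 271 CPM in controls, a log2 fold change of -0.12 ± 0.06. There were 0.295 and 0.286 Sec23b counts per Sec23a count in cKO, against 0.327 and 0.328 in controls, without overlap.

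Sar1b, the isoform tied to the export of large lipoprotein cargo, had 55.8 and 52.4 CPM in cKO, against 64.9 and 61.4 CPM in controls, a log2 fold change of -0.22. Sar1a had 269 and 281 CPM in cKO, against 264 and 280.4 CPM in controls, with overlap and a log2 fold change of 0.01. There were 0.208 and 0.186 Sar1b counts per Sar1a count in cKO, against 0.246 and 0.219 in controls. How reads that match both paralogs were counted is not given, so values of these pairs are uncertain. Sec24a was at -0.23 and Sec24d, the partner of Sec23a in collagen export, at -0.13. Mia3 encodes TANGO1, which packs procollagen into COPII carriers. It had 235 and 229 CPM in cKO, against 247 and 241 CPM in controls, a log2 fold change of -0.07 ± 0.06 with a 95% interval from -0.21 to 0.06.

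Chaperones, degradation and COPII genes differed little from one another as groups. Their median log2 fold changes were -0.17, -0.20 and -0.13. Of their genes 15 of 19, 5 of 8 and 6 of 7 had both cKO libraries below both control libraries. On the same TMM-scaled CPM 24.9% of all genes did. With library size alone these counts were 11, 5 and 5, against 16.7% of all genes. On that scale 2 chaperones and 1 degradation gene lay above, against 35.0% of all genes. Summed expression was 7854 and 7709.8 CPM in cKO, against 8793 and 8971 CPM in controls, for the chaperones. It was 786 and 777 CPM in cKO, against 842 and 884 CPM in controls, for degradation. For COPII transport it was 1240.2 and 1239 CPM in cKO, against 1328 and 1346 CPM in controls. The mean log2 CPM of the chaperones stood 0.476 and 0.456 above that of the COPII genes in the cKO libraries, against 0.507 and 0.522 in the control libraries. The cKO mean minus the control mean of that quantity was -0.05, and the libraries of the 2 groups did not overlap. The degradation genes, with Derl3 left out after its low counts were seen, stood at -0.724 and -0.744 relative to COPII in cKO, against -0.751 and -0.703 in controls, with overlap. No test of the differences between roles was made.

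**Figure D4:**
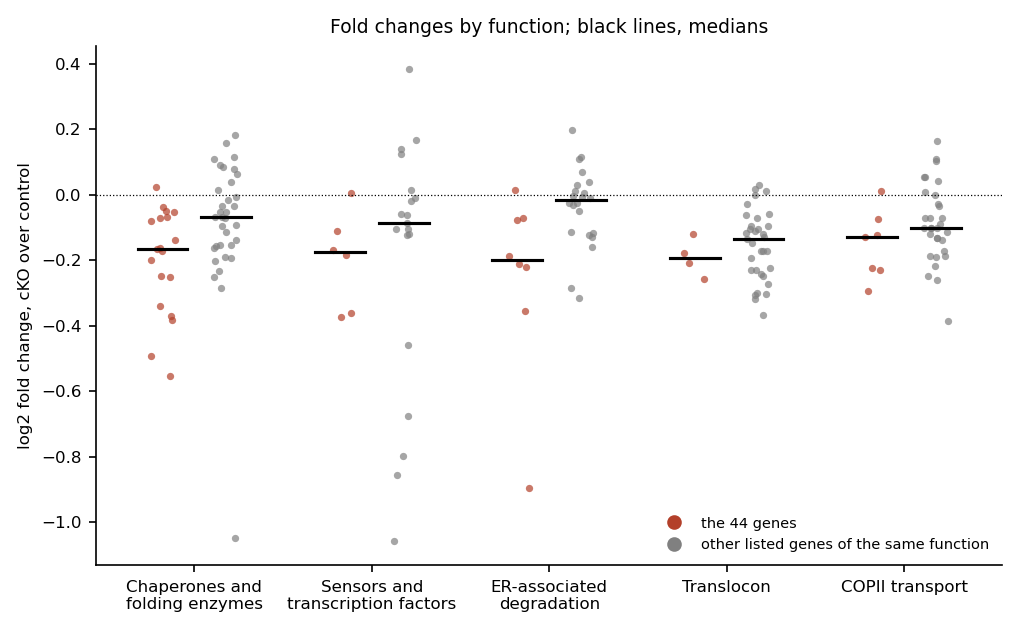
Log2 fold change of cKO over control for the 44 genes (red) and for 139 tested other genes of the same functions (grey), by role, with black lines at the medians. All 10 medians lie below 0, from -0.20 for the degradation genes among the 44 to -0.02 for the other degradation genes, and the lowest grey points are Ero1l among the chaperones and Trib3 among the sensors.

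A wider list of the same functions, 139 tested genes that are not among the 44, gave 2 calls, both lower in cKO, where 0.908% of all genes were called lower, so that count is near the background. Their median log2 fold change was -0.10. Ero1l, the oxidase that recharges the disulfide isomerases, had 432 and 329 CPM in cKO, against 764 and 811 CPM in controls, and fell by 1.05 ± 0.13 in log2 units (edgeR adjusted p = 0.0300). Magt1, an oxidoreductase subunit of the complex that attaches N-linked sugars, had 84.3 and 84.1 CPM in cKO, against 110.0 and 107 CPM in controls, and fell by 0.37 ± 0.05 (edgeR adjusted p = 0.0434). Neither passed without control replicate 1 (edgeR adjusted p = 0.123 for Ero1l and 0.182 for Magt1) or control replicate 2 (0.168 and 0.21), and Magt1 also missed without cKO replicate 2 (0.082) and with library size alone (0.0614). Of 34 other chaperones and folding enzymes 9 had an unadjusted edgeR p under 0.05 and a lower level, and 1 a higher level. At that p 8.88% of all genes were lower and 8.36% higher. Ppib, the collagen-linked cyclophilin, was at -0.25, Txndc11 at -0.28 and Serpinh1, the collagen chaperone Hsp47, at -0.23. Serpinh1 was at -0.34 without cKO replicate 1 and at -0.14 without cKO replicate 2.

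Of 33 other translocon, signal peptide and sugar transfer genes, 15 were lower at an unadjusted edgeR p under 0.05 and none higher. At that p 8.88% of all genes were lower. The median of the 33 was -0.13. The small sugar transfer subunit Ost4 was at -0.32 and Krtcap2, another of these subunits, at -0.30, with edgeR adjusted p-values of 0.0574 and 0.0729, and Ssr2 of the TRAP complex was at -0.27. Of 31 other COPII and early transport genes 8 were lower at an unadjusted edgeR p under 0.05, led by Kdelr3 (-0.39) and Kdelr2 (-0.25), receptors that return escaped chaperones to the ER, and Mia2 (-0.26), a TANGO1 relative. Of 22 other degradation genes 2 were, Selenos (-0.32) and the ubiquitin-conjugating Ube2g2 (-0.16), and their median of -0.02 lay nearest to 0. Man1b1, a mannosidase, was at 0.12. Leaving out 1 library at a time gave log2 fold changes from -0.46 to -0.31 for Kdelr3 and -0.35 to -0.18 for Mia2. The ranges were -0.39 to -0.25 for Selenos and -0.32 to -0.23 for Ssr2.

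The PERK branch raises Atf4 and its targets under stress. Of the 19 other sensor and stress genes tested, none passed, 5 had an unadjusted edgeR p under 0.05 and a lower level and 1 a higher level. At that p 8.88% of all genes were lower and 8.36% higher. Trib3, a pseudokinase induced by Atf4 and CHOP, had 73.1 and 44.6 CPM in cKO, against 119 and 126 CPM in controls (log2 fold change -1.06 ± 0.21, edgeR adjusted p = 0.0771). Ddit3, which encodes CHOP, had 73.6 and 43.4 CPM in cKO, against 103 and 101 CPM in controls (-0.80 ± 0.22; edgeR adjusted p = 0.148). Ppp1r15a, the phosphatase subunit that ends the PERK signal, was at -0.86 ± 0.21. In these genes both cKO libraries were below both controls, but the cKO libraries differed widely from each other, replicate 2 being the lower. Without cKO replicate 1 the log2 fold changes were -1.46 for Trib3, -1.23 for Ddit3 and -1.24 for Ppp1r15a. Without cKO replicate 2 they were -0.74, -0.47 and -0.55. A fit with 1 cKO library leaves out the wide difference between the cKO libraries, so its p-values are not given for these genes.

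Of 15 transcripts of secreted cargo, 10 cartilage genes fell, 2 collagen genes rose and 3, Fn1, Col1a2 and Matn3, did not pass (edgeR adjusted p = 0.356, 0.243 and 0.0572). Col2a1, the main cartilage collagen, had 7791 and 5380.45 CPM in cKO, against 14350.4 and 17757 CPM in controls (edgeR adjusted p = 0.0386), while Col1a1 rose, with 2673 and 2745 CPM in cKO, against 2061 and 1984 CPM in controls (edgeR adjusted p = 0.0300). There were 0.0834 and 0.112 Hspa5 counts per Col2a1 count in cKO, against 0.0634 and 0.0523 in controls, and 0.128 and 0.187 Calr counts per Col2a1 count in cKO, against 0.0711 and 0.0583 in controls. These ratios were higher in both cKO libraries because Col2a1 fell by more than Hspa5 (log2 fold changes of -1.29 and -0.55). They hold for Col2a1 and not for secreted cargo in general. Col1a1 rose, and Hspa5 and Calr counts per Col1a1 count were lower in both cKO libraries than in both control libraries. Without control replicate 1 the edgeR adjusted p-values were 0.123 for Col2a1 and 0.146 for Col1a1, and without control replicate 2 they were 0.196 and 0.21. The part of the lower Col2a1 level, or of the adipocyte and chondrocyte marker sums given above, in the ER gene values was not tested.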

How the data were processed

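Poly(A) RNA of 4 libraries, 2 cKO and 2 control, was fragmented and primed at random, per the labels' protocols. The authors deposited a table of raw counts, in whole numbers with a row per gene symbol and no scaling. Per the submitters' processing notes the tools were HISAT2 2.2.1, StringTie 2.1.7, Trim Galore 0.6.7 and FastQC 0.11.9 and the build was mm10, without their roles. How reads were counted (tool, strandedness, multi-mapping reads, annotation) was not given in the sources used here, so counts of overlapping or antisense genes and close paralogs are uncertain. Libraries held 66750140 to 78873054 counts. Of the values from 1 to below 50, 27.6% to 29.3% per library were multiples of 4, against 24.6% to 25.1% of higher values, and StringTie is among the tools, so it is not settled that 1 count is 1 read. Tests and intervals treat it as such, and intervals of shares cover counting error only, would be too narrow if several counts stand for 1 read, and take no account of PCR copies. Counts divided by 4 were tried for this reason.

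Genes were filtered by edgeR's filterByExpr (minimum count 10), which left 15522. Library sizes were scaled by TMM, and the quasi-likelihood test (edgeR 4.0.16, R 4.3.3) compared cKO with control without covariates, with Benjamini-Hochberg adjustment over the 15522 genes and a threshold of 0.05. Fold changes are log2 of cKO over control, with 95% intervals from the same fit. CPM values are TMM-scaled unless stated, and mean log2 CPM used a pseudocount of 0.5. The procedure was also run on simulated counts, with true changes larger than the fold changes of the 44 genes. That run therefore does not show how the procedure performs on changes of their size. Levels per kb used the exon union length of the GENCODE M21 annotation of mm10, which also gave gene positions, and promoter windows came from RefSeq (GRCm38.p6).

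The 44 genes, the wider lists and the ratios were chosen with earlier results of these data known. Of the wider lists, 141 of 151 symbols were in the table and 139 were tested. Of these, genes past the threshold and up to 3 more per list, by smallest p, were named. Sec24b and Sec24c were named as paralogs. The labels' replicate numbers were not taken as pairs. Alternatives were DESeq2 size factors, library size alone, DESeq2 1.42.0, limma-voom (limma 3.58.1), other count filters, counts divided by 4, replicate blocks and leaving out each library.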

Additional observations from a re-analysis of the deposited data

How the results depend on the processing

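With 2 libraries a group the number of calls depends strongly on the processing and the direction less so: 36 of the 44 genes kept the sign of their log2 fold change under all 13 alternatives, Derl3 kept it under the 10 that gave it a value, and none of the 44 was called higher under any. Hspa5 and Dnajb9 passed under 10 of the 13, with log2 fold changes from -0.61 to -0.49 and from -0.51 to -0.43. Called members numbered 2 lower, against 12 with DESeq2 (of 646 lower and 525 higher over all genes) and 5 with limma-voom (227 and 106). They numbered 5 with a minimum count of 50 (198 lower and 102 higher) and 6 with counts divided by 4 (243 and 128). With 1 library left out they numbered 0 to 8 (4 to 470 lower and 1 to 312 higher over all genes). Library size alone called 116 genes higher, moved the median of all genes to 0.07 and turned Calr to 0.029, Dnajc3 to 0.017 and Creld2 to 0.012. The medians were then -0.11 for the 44, -0.10 for chaperones, -0.13 for degradation, -0.13 for the translocon and -0.063 for COPII.

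By role, chaperones gave 6 calls with DESeq2, all lower, where 4.16% of all genes were called lower. They gave 4 with limma-voom and 4 with a minimum count of 50, where 1.46% of all genes were called lower in each. With counts divided by 4 they gave 4, against 1.76% of all genes. Sensors gave 2, 1, 1 and 1, in the same order. Degradation gave 1 with DESeq2, the translocon 1 with DESeq2, and COPII 2 with DESeq2 and 1 with counts divided by 4. With 1 library left out, medians ran from -0.21 to -0.14 for the 44, -0.21 to -0.13 for chaperones, -0.32 to -0.12 for sensors, -0.25 to -0.14 for degradation, -0.21 to -0.15 for the translocon and -0.15 to -0.12 for COPII. Single genes ran from -0.095 to 0.000273 for Dnajc3, -0.11 to 0.11 for Atf6b, -0.40 to 0.032 for Creb3l1, -0.019 to 0.046 for Sel1l and -0.029 to 0.057 for Sar1a. For 13 further members leaving out 1 library moved the log2 fold change by over 1.5 times without a sign change: Derl3 (-1.30 to -0.33), Fkbp2 (-0.47 to -0.20), Sdf2l1 (-0.38 to -0.098), Syvn1 (-0.30 to -0.14), Fkbp10 (-0.24 to -0.10), Atf6 (-0.19 to -0.034), Dnajb11 (-0.19 to -0.087), Derl2 (-0.16 to -0.0023), Pdia4 (-0.12 to -0.022), Edem2 (-0.12 to -0.023), Fkbp14 (-0.10 to -0.034), Creld2 (-0.095 to -0.012) and Dnajc10 (0.0095 to 0.036). None of these passed. A fit without 1 library assumes that the lone library varies like the other group. The cause of these changes was not tested.

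Same-numbered libraries deviated from their group means with a correlation of -0.158 over 15522 genes, so the numbers show no pairing. With the replicate block 20 genes were lower and 3 higher, and no member, chaperones included, was called (0 of 44; edgeR adjusted p = 0.0645 for Hspa5 and 0.0689 for Dnajb9). With crossed numbers, an alternative chosen after seeing the data, calls were 341 lower and 223 higher, 7 of them members: 4 chaperones, 2 sensors and 1 degradation gene. Derl3, at under 100 counts in every library, is limited by depth and dropped out with a minimum count of 50 or counts divided by 4.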

Other observations

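The spread between replicates varied by gene and by group. The SD of Canx was 32.5 CPM in cKO and 1.73 CPM in controls, whereas that of P4hb was 19.5 CPM in cKO and 48.4 CPM in controls. Of the 44, 30 were lower in cKO replicate 2 than in cKO replicate 1, where 49.9% of all genes tested were, and 14 were lower in control replicate 2 than in control replicate 1, where 49.1% were. The 30 comprised 13 of 19 chaperones, 5 of 6 sensors, 5 of 8 degradation genes, 2 of 4 translocon genes and 5 of 7 COPII genes. Herpud1 had 128 CPM in cKO replicate 1 and 108 CPM in cKO replicate 2, and Creb3l1 had 68.9 and 51.1 CPM. Going the other way, Atf6b had 66.7 CPM in cKO replicate 1 and 77.7 CPM in cKO replicate 2, with 71.2 and 72.5 CPM in the control libraries.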
